A study of Mus musculus with 24 samples.

Results

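The 9 genes followed here write, remove or enforce DNA methylation and gene silencing, and were measured in the cerebral cortex and blood of mouse neonates. They are Dnmt1, Uhrf1, Dnmt3a, Dnmt3b, Tet1, Tet2, Tet3, Gadd45b and Ezh2. The genes were chosen by gene symbol, as 9 of the 48709 genes in the count table. All 9 had at least 1 count in every cortex library, and 8 had at least 1 count in every blood library that was compared. Gadd45b had no count in 1 blood library and was outside the blood fits. In mm10 the genes lie at chr9:20907206-20959888 (Dnmt1), chr17:56303321-56323486 (Uhrf1), chr12:3806007-3914443 (Dnmt3a), chr2:153649450-153687730 (Dnmt3b), chr10:62804570-62899118 (Tet1), chr3:133463679-133545139 (Tet2), chr6:83362373-83459084 (Tet3), chr10:80930091-80932204 (Gadd45b) and chr6:47530139-47595341 (Ezh2).

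DNA methylation in mammals is copied at replication by Dnmt1, which is brought to newly made strands by Uhrf1, a protein that binds hemimethylated CpG. Dnmt3a and Dnmt3b add methyl groups to unmethylated sites, and in postnatal neurons Dnmt3a also methylates cytosines outside CpG. The Tet enzymes oxidize 5-methylcytosine as the first step of its removal, and Gadd45b, a stress- and activity-induced protein, has been linked to demethylation in neurons. Ezh2 is the catalytic subunit of Polycomb repressive complex 2 (PRC2), which methylates histone H3 on lysine 27 and is prominent in dividing precursor cells.

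Pregnant C57BL/6 dams breathed re-aerosolized nano-sized particulate matter (nPM), a sub-fraction of traffic air pollution collected beside a freeway, or filtered air as control. The exposure ran for 5 hours a day on 3 days a week, from gestational day 2 until birth, at a level that the labels write as 300 mg/m3 and the study's methods in micrograms. The pups, not the dams, were sampled at an age that 1 label gives as 3 to 5 days and another, like the methods, as day 5, and were neither exposed after birth nor genetically modified. The strain is C57BL/6J in the labels and C57BL/6NJ in the methods. Each tissue had 6 nPM and 6 control libraries, with 3 females and 3 males in each group, prepared from total RNA after removal of ribosomal RNA. The labels number the libraries, here V1 to V24, but do not give the litter or tie blood to cortex. The methods state that the pups of each sex and exposure group came from different litters. The study also states that blood and cortex came from the same animals. Females and males of the same exposure may share a litter, but nPM and control pups cannot, as the dam was exposed. The fits do not model litter, and p-values measure the spread between libraries.

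The 12 cortex libraries held 22301409 to 33804371 counts on genes, and 11 blood libraries held 13595647 to 21895536. The markers fitted the labels: summed cortical neuron markers lay at 3212 to 3970 CPM (counts of a gene relative to the library's total) in cortex and at 1.28 to 9.32 CPM in the 11 blood libraries, and globin genes took 66.2% to 76.8% of blood counts against 0.0246% to 0.0680% of cortex counts. The control blood library V2 stood apart, with 50.1% globin, and was left out of the comparisons. The study left out 1 blood library for its count distribution without naming it, and V2 is only assumed to be that library. The cortex library V14 had 29.7 CPM of summed subcortical markers against a median of 387 over all 12. In these bulk samples fewer cells of a type and less RNA per cell cannot be told apart.

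The sequence upstream of the genes was read because Dnmt1 and Uhrf1 act together at replication and E2F factors drive many replication genes. Among the RefSeq promoter windows (GRCm38.p6, 250 bases before each annotated start, all 9 genes matched), the E2F-type letters TTTCGCGC, TTTCCCGC or TTTGGCGC, read on either strand, were present in 1.53% of 32851 windows. They were found in 1 of 3 windows of Dnmt1 and 1 of 2 of Uhrf1, each time as TTTCGCGC or its reverse complement GCGCGAAA, and in no window of the other 7 genes, Ezh2 included. The matches are shown with 11 bases on either side, on the strand of the gene and with the matching letters in capitals. The Dnmt1 stretch is at chr9:20952824-20952853 on the minus strand and the Uhrf1 stretch at chr17:56304117-56304146 on the plus strand, each inside the annotated gene.
Dnmt1: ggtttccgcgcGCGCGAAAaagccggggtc
Uhrf1: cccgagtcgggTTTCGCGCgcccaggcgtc
The whole Uhrf1 window, chr17:56304063-56304312, is shown because it joins this match to a dense run of CpG, with 30 CpG in 250 bases against a median of 6 over all windows.
Uhrf1 upstream: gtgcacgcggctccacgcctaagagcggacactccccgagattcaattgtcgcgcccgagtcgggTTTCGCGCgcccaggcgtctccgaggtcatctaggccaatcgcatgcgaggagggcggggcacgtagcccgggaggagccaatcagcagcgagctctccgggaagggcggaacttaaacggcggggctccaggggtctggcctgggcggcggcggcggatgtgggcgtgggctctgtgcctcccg
The Dnmt1 window with the match held 26 CpG, the Ezh2 window 23, and the Tet2 window 51, more than 99.9% of all windows. The CCAAT box was in 33.8% of all windows and in 2 of 3 windows of Dnmt1, both of Uhrf1 and those of Tet3, Gadd45b and Ezh2, and the cAMP response element TGACGTCA was in 1.55% and in none of a member. A match of letters is a description of the sequence, not of a bound site. The E2F-type letters themselves contain CpG, and their share among windows equally dense in CpG was not computed. Other forms of the E2F letters were not searched.

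In cortex the de novo enzyme Dnmt3a was the most abundant of the 9 genes per length. Levels were compared between genes as RPKM, the scaled CPM (library totals scaled by TMM within a tissue) divided by gene length in kilobases, and the medians over 12 libraries were 26.1 for Dnmt3a, 16.7 for Dnmt1, 6.87 for Tet1, 5.69 for Tet3, 4.28 for Tet2, 2.97 for Ezh2, 2.23 for Gadd45b, 1.498 for Uhrf1 and 0.335 for Dnmt3b. Dnmt3a alone made up 36.1% to 41.5% of the summed level of the 9 genes. Each gene down to Tet2 was above the next in all 12 libraries, as was Uhrf1 above Dnmt3b, while Ezh2 exceeded Gadd45b, and Gadd45b exceeded Uhrf1, in 11 of 12 libraries with overlapping ranges. Between cortex libraries the coefficient of variation of the scaled CPM was lowest for Dnmt3a (4.32%), Tet1 (5.17%) and Dnmt1 (5.77%). It was highest, at 20.97%, for Dnmt3b, the gene with the fewest counts (35 to 59). Uhrf1 ranged from 5.69 to 8.15 scaled CPM and Gadd45b from 2.14 to 3.42.

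In blood the order was another, with Ezh2 in first place in all 11 libraries. Median RPKM was 20.6 for Ezh2, 4.29 for Dnmt1, 1.43 for Uhrf1, 0.937 for Tet3, 0.195 for Gadd45b, 0.174 for Dnmt3a, 0.135 for Tet2, 0.0374 for Tet1 and 0.0277 for Dnmt3b. Ezh2 made up 64.1% to 82.3% of the summed level. Below Tet3 the neighbours did not separate: Gadd45b exceeded Dnmt3a in 5 of 11 libraries, and the lowest genes rested on few reads, 1 to 5 counts for Dnmt3b, 0 to 8 for Gadd45b and 4 to 59 for Tet1. The coefficient of variation was 17.2% for Ezh2, 19.6% for Uhrf1, 40.3% for Dnmt1 and 89.9% for Tet1.

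**Figure D1:**
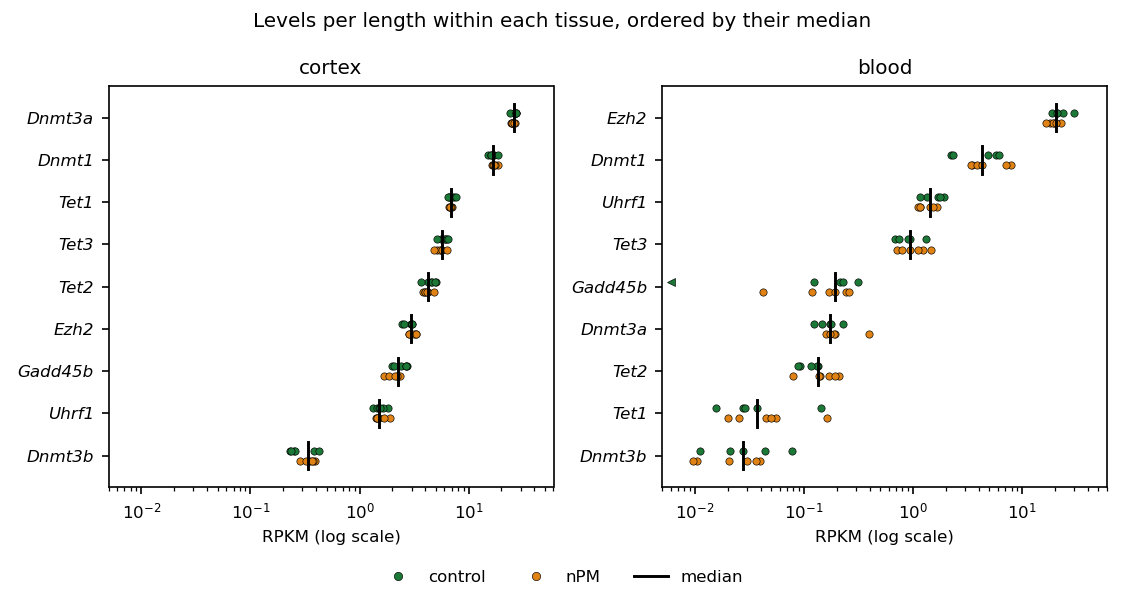
RPKM of each gene (log axis) in the 12 cortex and 11 blood libraries, each panel ordered by its own medians (bars); points are libraries, coloured by exposure. Dnmt3a led in cortex at a median of 26.1 and Ezh2 in blood at 20.6; the triangle at the edge marks the 1 blood library with no Gadd45b count.

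The makeup of this machinery differed between the tissues. Ratios of 2 members per length within a library show this whatever the scaling between libraries, since both genes come from the same library. RNA integrity number (RIN) did not overlap between the control libraries of the tissues, at 9.4 to 9.8 in cortex and 7.5 to 9.3 in blood. Sequencing lane 1 held only blood libraries, lane 2 only cortex libraries and lane 3 both. Tissue and RIN cannot be told apart here or in the fit that follows, and the part of lane was not tested. In the control libraries (6 cortex, 5 blood), Ezh2 over Dnmt1 was 0.145 to 0.195 in cortex and 3.62 to 10.2 in blood, a 34.1-fold shift. Dnmt3a over Dnmt1 was 1.30 to 1.81 in cortex and 0.0200 to 0.0770 in blood, 37.2-fold lower in blood. Dnmt1 over Uhrf1, the methyltransferase over its recruiter, fell from 9.91 to 11.9 in cortex to 1.68 to 3.39 in blood. Tet3 over Tet2 went from 1.21 to 1.43 up to 5.07 to 11.2, and Tet1 over Tet3 from 1.11 to 1.26 down to 0.0164 to 0.158. The 6 ratios tested (these 5 and Ezh2 over Uhrf1, 7.93-fold higher in blood) did not overlap between tissues, each with p = 0.00216 in a two-sided exact permutation test over 462 assignments, the smallest p this design allows, and the same after Benjamini-Hochberg adjustment over the 6. The test treats the libraries as independent, although tissues of 1 pup may be among them. Of all 10275 genes tested between these libraries, 75.3% also had the 2 tissues apart, so the lack of overlap itself says little about the members. For groups as far apart as these, the permutation p is set by the numbers of libraries and adds nothing to the ranges given. The 6 pairs are a selection from the members, and ratios of other gene pairs were not tested.

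A fit over all genes put each member beside the typical gene of the 2 tissues. In edgeR's quasi-likelihood test on TMM-scaled counts of the control libraries, 7 of the 8 members tested passed at an adjusted p under 0.05, where 86.2% of all 10275 genes did, so the count itself says little about the members. The log2 difference, blood minus cortex, was 7.14 (SE 0.14, adjusted p = 1.5e-15) for Ezh2, 4.10 (SE 0.12) for Uhrf1, 2.14 (SE 0.23) for Dnmt1 and 1.43 (SE 0.14) for Tet3, where the sign of the last 3 depends on the scaling, as given in the next paragraph. It was -3.13 (SE 0.13) for Dnmt3a, -2.79 (SE 0.33) for Tet1 and -1.15 (SE 0.14) for Tet2. Dnmt3b missed the threshold at 0.97 (SE 0.44, adjusted p = 0.063). The median of all genes was -0.24 on this scale. Only 208 genes lay above Ezh2, which exceeded 98.0% of the genes tested, while Uhrf1 exceeded 90.6%, Dnmt1 79.1%, Tet3 72.6%, Tet2 31.8%, Tet1 8.18% and Dnmt3a 6.00%.

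The direction of several of these differences depended on the scaling. With TMM the median gene was at -0.24. With plain library totals, without TMM, the median gene was at -4.70 and the signs of Dnmt1 (-2.43), Uhrf1 (-0.38), Tet3 (-3.05) and Dnmt3b (-3.50) turned. With globin genes also taken out of the totals the median gene was at -2.76, Uhrf1 was higher in blood (1.57), and Dnmt1 (-0.46), Tet3 (-1.11) and Dnmt3b (-1.56) were lower. Ezh2 was higher and Dnmt3a, Tet1 and Tet2 were lower in blood under each of these scalings, Ezh2 by 2.65 to 7.14 on the log2 scale. In plain terms, the median control level of Ezh2 was 19.9 CPM in cortex and 139.9 CPM in blood, that of Uhrf1 was 6.28 CPM in each tissue, and that of Dnmt3a was 444 CPM in cortex and 3.16 CPM in blood.

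The partners of the members were read from lists of related genes, as places relative to the median gene of the same fit. Of 12 genes in the PRC2 list, which holds 10 other subunits and partners and the opposing demethylases Kdm6a and Kdm6b, 8 lay above the median gene in the blood minus cortex difference, with a list median of 1.17 against -0.24. They included the core subunits Eed (3.66, SE 0.12) and Suz12 (2.23, SE 0.11) and the alternative catalytic subunit Ezh1 (1.16, SE 0.10). Only 3 of 15 genes of PRC1, the complex that ubiquitinates histone H2A, lay above it (list median -1.24), and 3 of 11 genes of histone H3 lysine 9 methylation and heterochromatin did (median -0.98). Of 15 genes of methylation maintenance and reading, 10 lay above it, with Hells, a chromatin remodeler needed for methylation, at 2.84 (SE 0.12). The proliferation list, DNA replication and mitosis genes, lay above it in 18 of 18 (median 3.03). So did 7 of 7 immediate early genes and 8 of 8 erythroid markers. Of the members, Ezh2, Uhrf1, Dnmt1, Tet3 and Dnmt3b lay above it. The part of proliferation in the members' differences was not tested. All these list values are on the TMM scale. In plain CPM the summed proliferation list had a control median of 228 in cortex and 255 in blood.

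Prenatal nPM left no detected difference in any of the 9 genes in cortex. In the fit with sex and RNA integrity number (RIN) as covariates, 0 of 9 members passed at an adjusted p under 0.05, where 0.0144% of 20857 genes did, and 0 of 9 passed at an unadjusted p under 0.05, where 5.67% did. For no member were the 6 nPM libraries apart from the 6 controls, as they were for 0.197% of genes. DESeq2 and limma voom also called none. The median log2 fold change over all genes was near 0 (-0.0024).

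Among the maintenance genes in cortex, Dnmt1 lay at 94.8, 104 and 116 scaled CPM (lowest, median and highest of 6 controls) and at 103, 106 and 117 with nPM. Its log2 fold change, nPM minus control, was 0.05 (SE 0.04, 95% confidence interval -0.04 to 0.14). Uhrf1 was at 5.69, 6.44 and 7.81 in controls and 5.98, 6.27 and 8.15 with nPM, a difference of 0.03 (SE 0.09). The groups overlapped for each gene, and the Dnmt1 interval ran from 0.975-fold to 1.10-fold.

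The de novo enzymes did not pass either. Dnmt3a, by far the more abundant, lay at 399, 446 and 453 scaled CPM in controls and at 411, 416 and 443 with nPM (log2 -0.05, SE 0.04). Dnmt3b lay at 1.19, 1.29 and 2.15 in controls and 1.45, 1.82 and 2.00 with nPM, and its difference of 0.23 had an interval of -0.15 to 0.61. The difference of mean log2 values of Dnmt3b was 0.07 in sequencing lane 2 and 0.66 in lane 3. With 35 to 59 counts a library, the Dnmt3b interval ran from 0.904-fold to 1.52-fold, and that of Dnmt3a from 0.905-fold to 1.03-fold.

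The demethylation genes had small negative estimates in cortex. Tet1 was at 95.04, 102 and 114 scaled CPM in controls and 97.4, 101 and 104 with nPM (log2 -0.03, SE 0.04). Tet2 was at 61.3, 77.1 and 84.1 against 64.5, 69.0 and 80.8 (-0.10, SE 0.07), and Tet3 at 85.6, 102 and 108 against 80.0, 92.4 and 105 (-0.11, SE 0.06). Gadd45b was at 2.51, 3.21 and 3.42 against 2.14, 2.75 and 2.97 (-0.22, 95% confidence interval -0.51 to 0.06, adjusted p = 0.882). Sequencing lane held both groups in each tissue, and the lanes did not agree on the Tet genes: the difference of mean log2 values was -0.19 for Tet2 and -0.20 for Tet3 in lane 2 (4 against 4 libraries) and 0.08 and 0.06 in lane 3 (2 against 2). For Gadd45b it was -0.17 and -0.29. Of the 3 genes that overlap Tet3, on the same or the opposite strand, the one with the most counts held 596 over all 24 libraries.

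Ezh2 had the smallest unadjusted p of the 9 genes in cortex, and its adjusted p was 0.872. Its level was 16.2, 19.7 and 20.3 scaled CPM in controls and 18.9, 20.6 and 21.9 with nPM, a log2 difference of 0.12 (SE 0.07) that was 0.12 in each of the 2 lanes. The groups overlapped. Of the 12 genes in the PRC2 list, Kdm6a and Kdm6b included, 1 passed an unadjusted p of 0.05, the accessory subunit Phf19 (0.49, SE 0.16, adjusted p = 0.844), and the list median was -0.03. The proliferation list had 15 of 18 positive estimates and a median of 0.15, with Rrm2 (0.25, SE 0.08), Cdk1 (0.35), Birc5 (0.34) and Top2a (0.21) under an unadjusted p of 0.05 and none under an adjusted one. A marker of other tissue stood out as well: the subcortical transcription factor Isl1 was at 0.94 (SE 0.35) without passing adjustment. Its part in the small Ezh2 difference was not tested.

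**Figure D2:**
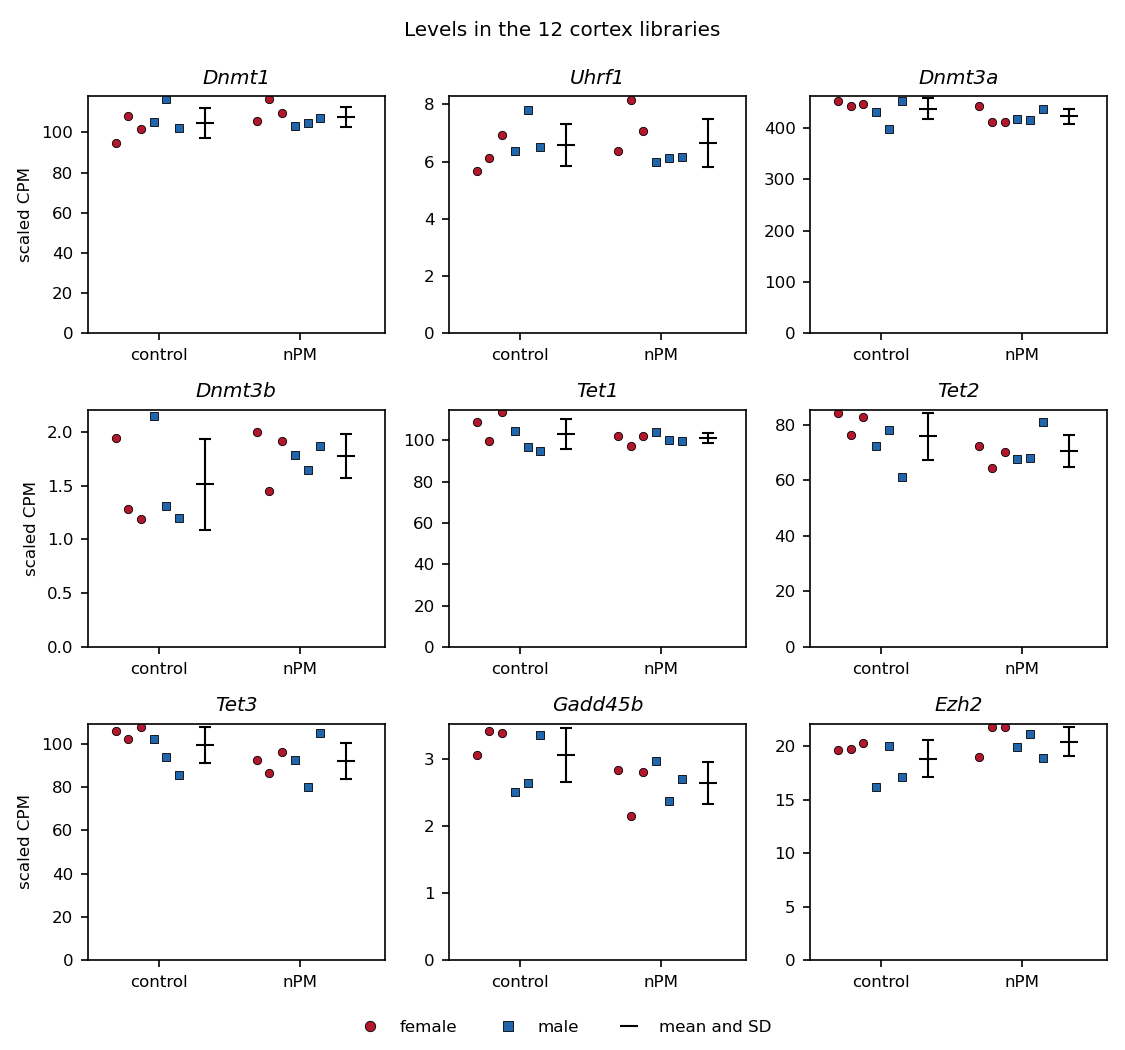
Scaled CPM of each gene in the 12 cortex libraries (points; circles female, squares male) with the mean and SD of each group of 6. The nPM and control libraries overlap for all 9 genes, as for Dnmt3a at 399 to 453 in controls and 411 to 443 with nPM.

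The other genes of these pathways gave the same picture in cortex. None of 15 genes of methylation maintenance and reading, 16 of active demethylation, 19 of PRC1, 12 of histone H3 lysine 9 methylation and heterochromatin, 14 of the NuRD and SIN3 deacetylase complexes and 14 immediate early genes passed adjustment. Neil1, a base excision glycosylase, was the 1 gene of these lists under an unadjusted p of 0.05 (log2 -0.22, SE 0.09, adjusted p = 0.862). In the others the genes with the smallest p were Pcna (0.08, SE 0.05), the replication clamp, Rnf2 (0.10, SE 0.05), the ubiquitin ligase of PRC1, Cbx5 (0.07, SE 0.04), a heterochromatin protein, Chd5 (-0.09, SE 0.06), a NuRD remodeler, and Nr4a1 (-0.23, SE 0.11). The list medians lay between -0.08 (immediate early genes) and 0.04 (H3 lysine 9 genes).

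In blood, too, no difference with nPM was detected in any member. At an adjusted p under 0.05, 0 of 8 members tested passed, as did 0% of 9977 genes, and at an unadjusted p 0 of 8 did, against 3.11% of genes. No member had its 6 nPM libraries apart from the 5 controls, against 0.221% of genes. DESeq2 and limma voom called no member. The intervals were wider than in cortex throughout, as the plot of fold changes shows.

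Dnmt1 in blood lay at 14.1, 14.5, 30.7, 36.0 and 38.9 scaled CPM in the controls and at 21.6, 25.7 and 49.8 (lowest, median and highest of 6) with nPM. Its log2 fold change was 0.11 with an interval of -0.50 to 0.72. The 2 highest values, 49.8 in V18 and 45.3 in V3, came from nPM females with RIN 7.6, and the control female with RIN 7.5, V17, was at 36.0; the part of RNA quality was not tested beyond the covariate. Uhrf1 lay at 4.98, 5.68, 7.17, 7.54 and 8.14 in controls and at 4.68, 5.52 and 7.12 with nPM (-0.23, SE 0.19).

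Dnmt3a was low in blood, at 2.05, 2.44, 2.86, 2.94 and 3.81 scaled CPM in controls. With nPM it was at 2.66, 3.04 and 6.51, where the highest value was the male library V5 and the next was 3.23 (log2 0.31, SE 0.26). Dnmt3b had 1 to 5 counts in each library, around the 3 counts used here as a detection floor, and its difference of -0.30 had an interval of -1.48 to 0.88.

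Tet2 had the smallest unadjusted p of the members in blood. Its controls were at 1.49, 1.54, 1.96, 2.22 and 2.28 scaled CPM and its nPM libraries at 1.33, 2.61 and 3.52, a log2 difference of 0.45 (SE 0.25, adjusted p = 1.00). The lanes gave 0.51 and 0.21. Tet3, the most abundant Tet gene in blood, lay at 11.5, 12.5, 15.2, 15.7 and 21.8 in controls and at 12.02, 17.2 and 24.3 with nPM (0.15, SE 0.22). Tet1 was at 0.228, 0.403, 0.425, 0.550 and 2.11 in controls and at 0.296, 0.702 and 2.39 with nPM (0.21, SE 0.57). In each group 1 library, V4 among controls and V5 with nPM, held far more Tet1 reads than the others, 59 and 51 counts against 4 to 16.

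Gadd45b had 0, 2, 6, 7 and 8 counts in the control blood libraries and 1 to 7 with nPM. Its mean log2 difference was 0.28, with p = 0.738 in a two-sided exact permutation test over 462 assignments, whose smallest possible p is 0.00216. The lanes gave 0.75 and -0.33, and no difference was detectable at this depth. Ezh2, the most abundant member in blood, lay at 126.7, 138, 138, 158 and 200.2 scaled CPM in controls and at 109.7, 129.6 and 151 with nPM (-0.20, SE 0.18, interval -0.58 to 0.19).

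**Figure D3:**
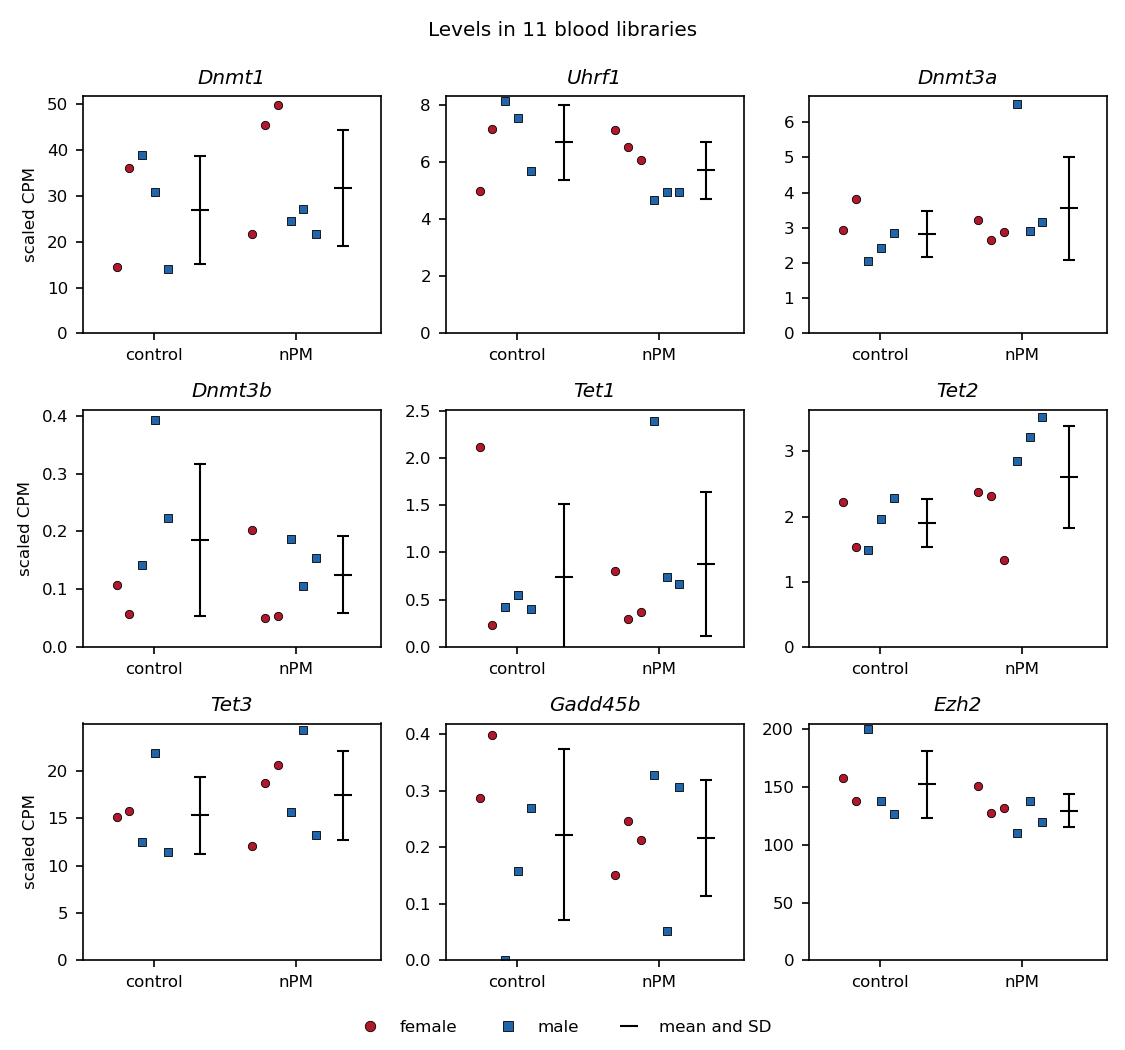
Scaled CPM of each gene in 11 blood libraries (points; circles female, squares male) with the mean and SD of 5 controls and 6 nPM libraries. One library in each group lies far above the rest for Tet1, at 2.11 and 2.39, and V5 also for Dnmt3a, at 6.51.

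**Figure D4:**
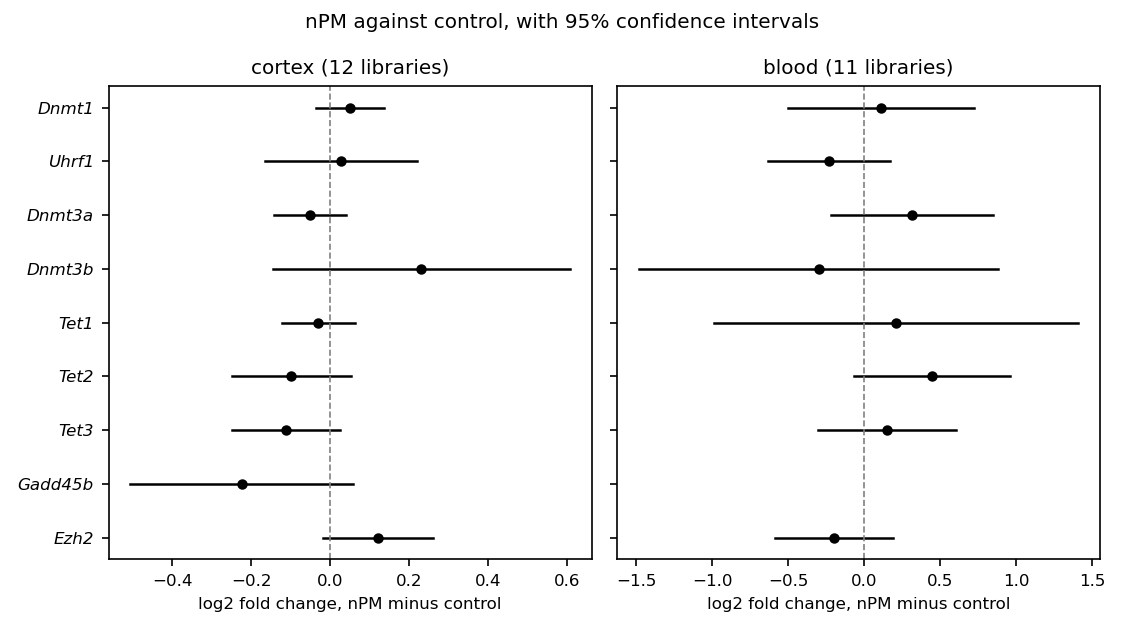
Log2 fold change, nPM minus control, of each gene in cortex and blood with 95% confidence intervals; the horizontal scales differ, and Gadd45b was not fitted in blood. Every interval spans 0, from -0.51 to 0.06 for Gadd45b in cortex to -0.99 to 1.41 for Tet1 in blood.

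None of the related lists in blood held a gene that passed adjustment. The list medians were -0.04 for methylation maintenance and reading (15 tested), -0.05 for active demethylation (12), -0.14 for PRC2 (12) and -0.09 for PRC1 (15), beside 0.0024 for all genes. Under an unadjusted p of 0.05 these 4 lists held no gene, and the smallest p belonged to Pcna (-0.38, SE 0.22), the cytidine deaminase Apobec3 (-0.33, SE 0.20), Suz12 (-0.35, SE 0.17) and Ring1 (-0.72, SE 0.49). In the H3 lysine 9, deacetylase and immediate early lists it belonged to Suv39h1 (0.58, SE 0.29), Hdac2 (0.68, SE 0.39) and Ier2 (-0.66, SE 0.41), and none was under 0.05. In the proliferation list 1 of 18 was, the mitotic kinase Cdk1 (-0.54, SE 0.26). Blood cell markers moved with exposure in 2 genes: the cytotoxic lymphocyte genes Gzma (-1.15, SE 0.43) and Nkg7 (-1.15, SE 0.44) were under an unadjusted p of 0.05 but passed no adjustment, and their part in the members' values was not tested.

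Sex alone did not separate the members. At an adjusted p, 0 of 9 in cortex and 0 of 8 in blood passed (0.0336% and 0% of genes), and at an unadjusted p also 0 and 0 (6.09% and 4.54% of genes).

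The nPM effect was then read within each sex, from a fit with an nPM by sex term. No member passed adjustment for that term in cortex or in blood, as 0% of genes did in each. In cortex 1 of 9 passed an unadjusted p of 0.05, Tet2, against 9.68% of genes, and in blood 1 of 8, Tet1, against 10.7% of genes.

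In female cortex Tet2 was at 76.1, 82.7 and 84.1 scaled CPM in controls and at 64.5, 70.2 and 72.3 with nPM. The 3 nPM libraries were all below the 3 controls, by 0.24 on the log2 scale (SE 0.09, adjusted p = 0.332). In males Tet2 was at 61.3, 72.2 and 78.0 in controls and 67.7, 67.8 and 80.8 with nPM (0.05, SE 0.09), and the difference between the sexes was 0.28 (SE 0.13, adjusted p = 0.516), and was 0.17 without V23 and 0.18 without V24. The unadjusted call of this difference was lost without V10, V11, V14, V19, V23 or V24. Tet3 in females was at 102, 106 and 108 in controls and 86.2, 92.6 and 96.2 with nPM (-0.20, SE 0.09, adjusted p = 0.398), and its difference between the sexes was 0.18 (SE 0.13, adjusted p = 0.675).

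These 2 of 9 members in female cortex compare with 11.8% of all genes under an unadjusted p of 0.05. In all, 4 members, Dnmt3a, Tet2, Tet3 and Gadd45b, had all 3 female nPM libraries below all 3 controls, and 21.6% of genes were apart in one direction or the other. In male cortex 0 of 9 passed (4.56% of genes) and 1, Uhrf1, was apart, lower with nPM (9.17% of genes). These calls depended on single libraries: the unadjusted p was no longer under 0.05 for Tet2 without V10 (-0.18), V11 (-0.17) or V19 (-0.23), and for Tet3 without V9 (-0.21), V10 (-0.19), V11 (-0.15) or V19 (-0.18).

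In blood the sexes went opposite ways for Tet1. Female controls were at 0.228 and 2.11 scaled CPM (4 and 59 counts) and female nPM libraries at 0.296, 0.374 and 0.808. Male controls were at 0.403, 0.425 and 0.550 and male nPM libraries at 0.664, 0.739 and 2.39. The log2 difference was -1.504 in females (SE 0.70, adjusted p = 0.517) and 1.92 in males (SE 0.66, adjusted p = 0.941), and the sexes differed by 3.43 (SE 1.01, adjusted p = 0.452, from 0.0117 to 0.999 over its alternatives). Without V4 the female value was 0.58 and the difference between the sexes 1.16 (adjusted p = 0.964), and without V4 and V5 the latter was 0.29 (adjusted p = 0.999), so the opposite signs rested on the control female V4. V5 had the highest summed cortical neuron markers of the 11 blood libraries compared, 9.32 CPM against 5.43 in V4 and a median of 4.60; their part was not tested.

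Male blood held 3 of 8 members under an unadjusted p of 0.05, Tet1, Tet2 and Dnmt3a, all higher with nPM, against 4.99% of genes. Tet2 was at 1.49, 1.96 and 2.28 scaled CPM in male controls and at 2.86, 3.22 and 3.52 with nPM (0.79, SE 0.33, adjusted p = 0.941). Dnmt3a was at 2.05, 2.44 and 2.86 in male controls and 2.90, 3.17 and 6.51 with nPM (0.76, SE 0.33), and without V5 its difference was 0.28 (adjusted p = 0.999). Without V5 the male Tet1 difference was 1.05, and of the 3 only Tet2 stayed under an unadjusted p of 0.05. Tet2 in turn lost it without V1 (0.69), V6 (0.63) or V21 (0.70), and Dnmt3a also without V1 (0.56), V6 (0.66) or V8 (0.74). In males 4 members were apart, the 3 above and Uhrf1, which was at 5.68, 7.54 and 8.14 in controls and 4.68, 4.95 and 4.96 with nPM (-0.52, SE 0.25), against 11.1% of genes. In female blood 1 of 8 members, Tet1, passed an unadjusted p of 0.05 (9.33% of genes). Dnmt1, whose female and male estimates were 0.74 and -0.44, differed between the sexes by -1.18 (SE 0.55, adjusted p = 0.469). With 1 library left out this difference ran from -1.73 (without the control female V17) to -0.60 (without the control female V4). Blood cell markers moved with the same term, without passing adjustment: 5 of 5 platelet and 8 of 8 erythroid markers were negative (5 and 2 of them under an unadjusted p of 0.05), and 6 of 6 neutrophil, 5 of 5 B cell and 6 of 7 T and NK cell markers were positive (2, 0 and 2 of them). Their part in the members' values was not tested.

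**Figure D5:**
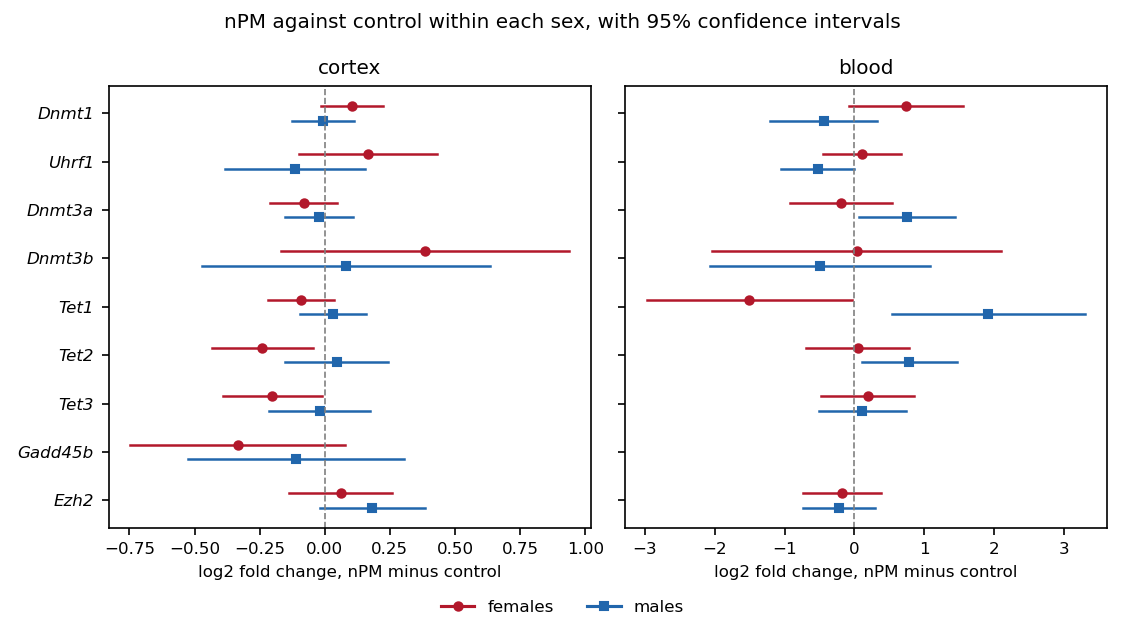
Log2 fold change, nPM minus control, in females (red circles) and males (blue squares) with 95% confidence intervals, in cortex and blood on different horizontal scales. Tet1 in blood lies at -1.504 in females and 1.92 in males, and Tet2 in cortex at -0.24 and 0.05.

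RNA integrity was itself tested, after the levels had been seen. In cortex, where RIN ran from 9.4 to 9.9, 2 of 9 members passed an unadjusted p of 0.05 against 4.18% of genes: Dnmt1 rose by 0.40 on the log2 scale for each unit of RIN (SE 0.14) and Uhrf1 by 0.77 (SE 0.32). Neither passed adjustment (adjusted p = 0.973 for each), nor did any gene (0%). Both unadjusted calls depended on single libraries. With 1 library left out, the Dnmt1 slope ran from 0.31 to 0.50, with an unadjusted edgeR p of up to 0.111. The Uhrf1 slope ran from 0.58 to 0.98, with an unadjusted edgeR p of up to 0.176. In blood, where RIN ran from 7.5 to 9.3, 0 of 8 members passed either way, beside 4.63% of genes unadjusted and 0% adjusted.

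Some genes followed the members closely from library to library. By Pearson r of log2 values, over 16659 genes with at least 10 counts in each of the 12 cortex libraries, Dnmt1 was most like L3mbtl3 (r = 0.944), Gpr27 (0.929) and Kif3b (0.911), and Dnmt3a like Cntnap1 (0.942), Scn1a (0.928) and Nefh (0.925). Uhrf1 was most like Zscan21 (0.895), Has2 (0.883) and Pcyt1b (0.881), and Ezh2 like Nhs (0.941), Fam114a2 (0.932) and St8sia4 (0.914). In 11 blood libraries, over 5547 genes, Dnmt1 was most like Rbbp4 (0.963), Ubac1 (0.961) and Fbxo42 (0.947), and Dnmt3a like Kidins220 (0.905) and Abl1 (0.886). Uhrf1 was most like Tmem33 (0.921), the pseudogene Bnip3l-ps (0.893) and Picalm (0.878), and Ezh2 like Tlk1 (0.982), Rbm27 (0.963) and Strn3 (0.952). These are the highest of all these genes over few libraries that share depth and exposure group.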

How the data were processed

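RNA from 24 libraries was sequenced after RiboZero Gold preparation. The authors trimmed adapters with Trimmomatic where needed, aligned reads to mm10 with HISAT2, and deposited whole-number counts per Gencode M11 gene from featureCounts 1.5.0-p3. Whether strand was used is not given in the sources used here, so reads of Dnmt3a, Dnmt3b, Tet2, Tet3 and Ezh2 cannot be told from those of genes opposite them. The deposited gene table also gives gene length and a mean RPKM by the authors, which was not used in any test.

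The 9 members, taken by symbol, and the gene lists were chosen with earlier results of these data known. A gene entered a fit when no library of that fit lacked it (count minimum 1), and was tested with edgeR 4.0.16 in R 4.3.3 (TMM, quasi-likelihood test, Benjamini-Hochberg adjustment over all genes tested). The designs were sex, RIN and exposure, the same with an exposure by sex term, and sex and tissue in control libraries. Fold changes are without shrinkage, with 95% confidence intervals. Scaled CPM use TMM-scaled totals within a tissue, plain CPM the totals of all counts, and RPKM divides scaled CPM by the deposited length. Intervals come from the fits and include the spread between libraries, while floors (3 counts) cover counting error only. Alternatives were DESeq2 1.42.0 and its size factors, limma 3.58.1 voom, other count minimums (1 count in any library, 10 in every one), no RIN, lane, all 12 blood libraries, other scalings of the tissues, and each library left out. The fitting code was tested on simulated data. All pairs of libraries within a group differed by more than sampling noise (chi-square per gene of at least 5.75). Named genes outside the 9 were those of a list that passed the test, otherwise the gene with the smallest p, plus core complex members and cell markers that moved, chosen after their values were seen. A few genes of the lists are not reported here.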

Additional observations from a re-analysis of the deposited data

Results flagged for a closer look

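In 3 of 36 sets of libraries (9 genes in 2 tissues and 2 exposure groups) 1 library lay far from the rest by Dixon's criterion, which chance reaches in about 1 of 20 sets, and all 3 were in blood. Tet1 was at 2.11 scaled CPM in the control library V4, where the other 4 controls reached 0.550, and at 2.39 in the nPM library V5, where the other 5 reached 0.808. Dnmt3a was at 6.51 in V5, where the other 5 nPM libraries reached 3.23.

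The control blood library V2, which entered no comparison, held more of 8 members than any of the 5 other controls, in plain CPM. Dnmt1 was at 86.6 CPM (others up to 31.3), Uhrf1 at 44.2 (7.06), Dnmt3a at 47.5 (3.75), Dnmt3b at 2.50 (0.368), Tet1 at 13.3 (2.69), Tet2 at 59.2 (2.83), Tet3 at 103.7 (20.4) and Gadd45b at 6.56 (0.365). Ezh2 was the exception, at 164.2 CPM, 1.22 times the median of the 11 other blood libraries, while Gadd45b was 26.7 times it, Tet1 25.8 times and Tet2 24.5 times. Summed markers also lay apart in V2: cortical neurons at 50.1 CPM (at most 9.32 in the 11 others), cortical progenitors at 145.9 (16.2), proliferation at 1057 (401) and immediate early genes at 163 (15.2). Their part in the members' levels was not tested.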

How the results depend on the processing

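Of 869 values of single members under an alternative, 827 kept their direction and their side of the threshold, 33 turned sign, 1 lost and 8 gained the threshold, and the cause was not tested. No member was called for nPM in either tissue under any alternative, and 1 was for the nPM by sex interaction in blood when genes with a count in any library were tested, Tet1 (3.38, adjusted p = 0.0117). Without RIN the Tet3 interaction in blood was 0.076. With all 12 blood libraries the nPM difference was -0.090 for Tet2 and 0.045 for Ezh2, and the interaction of Dnmt3b 0.63. Without V4 and V5, chosen after their values were seen, the Dnmt1 difference in blood was -0.12, the Ezh2 interaction 0.051 and the female Tet1 difference 0.58. The tissue difference without TMM was -2.43 for Dnmt1, -0.38 for Uhrf1, -3.50 for Dnmt3b and -3.05 for Tet3, and with globin also out of the totals -0.46, -1.56 and -1.11 for Dnmt1, Dnmt3b and Tet3. Dnmt3b passed as higher in blood with DESeq2 (1.199, adjusted p = 0.0106), its size factors, genes counted in any library, V2 included, and without V10, V14 or V17 (adjusted p 0.00699 to 0.0438), and Tet2 did not with V2 included (-0.69, adjusted p = 0.0629).

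Leaving out single libraries turned the nPM difference in cortex of Uhrf1 (-0.014 to 0.067) and Tet1 (-0.051 to 0.0022), and in blood of Dnmt1 (-0.14 to 0.41), Dnmt3b (-0.98 to 0.026), Tet1 (-0.37 to 1.45) and Tet3 (-0.020 to 0.30). It turned the interaction in blood of Dnmt3b (-0.90 to 0.14), Tet3 (-0.48 to 0.27) and Ezh2 (-0.16 to 0.066), and the female Tet1 difference (-2.06 to 0.58). Over all genes, nPM calls in cortex numbered 3, against 22 with DESeq2, 185 with genes counted in any library and 1 without RIN or with lane, and in blood 0, 1 and 28 in the first 3 settings. Calls for the nPM by sex interaction numbered 0, 67 and 379 in cortex and 0, 4 and 81 in blood, and for tissue 8861 against 16131 with genes counted in any library. In cortex DESeq2 called 169 genes in females (edgeR 0) and 3 in males (edgeR 0), and in blood 6 in females (edgeR 2, and 1 without V4 and V5) and 1 in males (edgeR 0). No paired analysis was possible because the labels do not tie a library of one group to one of another, and the numbers within a group follow accession order.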
